A study of Mus musculus with 9 samples.

Results

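The proteins of the thin filament, the Z-disc and the M-band hold the contractile unit of muscle together, and 45 of their genes are described here in mouse gastrocnemius, the large fast muscle of the calf. The genes were taken by symbol from a list of filament, Z-disc and M-band components. The rule itself uses no measured value, but the list was chosen with earlier results of these data known. All 45 were found among the 17314 genes of the table, and all 45 passed the expression filter that left 13044 genes. They were sorted into 6 classes by role: 7 thin filament core genes, 8 genes of the filament ends and their turnover, 3 genes of the myosin light chains and their kinase, 13 Z-disc scaffold genes, 9 Z-disc genes of stretch and assembly, and 5 genes of titin and the M-band.

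Messenger RNA of the gastrocnemius was sequenced in mice of 3 ages, 6, 15 and 21 months, with 3 mice and 3 libraries per age. The labels give neither genotype, strain, sex nor treatment, and age is the only factor they give. Total estimated counts ran from 15354396 to 17317856 per library, and levels are given as CPM, which are counts scaled to a common library size. The label of a fast skeletal muscle was met by its markers, since Acta1, Tnnt3 and Myh4 (the fastest myosin) had lowest values of 20876, 16178 and 33611 CPM in any library. Mouse 2 of 6 months, mouse 1 of 15 months and mouse 3 of 21 months stood apart on slow and oxidative fibre genes. They also stood apart on Myh1, a fast myosin heavy chain. Results are also given without these 3 libraries, a choice made with results known. The series title concerns thyroid hormone receptor alpha and muscle aging, and the comparisons of the 3 ages ask which sarcomere transcripts differ with age.

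In the sarcomere, thin filaments of actin, tropomyosin, troponin and nebulin slide past thick filaments of myosin. The thin filaments are anchored in the Z-disc by alpha-actinin, whose partners also bind titin, desmin and signalling proteins, and titin runs on to the M-band, where myomesins crosslink the thick filaments. Fast and slow fibres use different isoforms of many of these proteins, and a group of Z-disc proteins, among them the products of Csrp3, Ankrd2 and Xirp1, is known for responding to stretch and to remodelling of the fibre.

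Promoter sequence was available for 32 of the 45 genes, with 36 promoters in all, as the 250 bases before each start in RefSeq, assembly GRCm38.p6. The set shown here covers Csrp3, the member with the widest range between libraries, Myom3 and Actn2, which ranged widely as well, and Acta1, the member with the highest level per length. Capitals mark matches on either strand to a MEF2 site, a CArG box (the site of serum response factor), AGGTCA (the hexamer read by nuclear receptors, thyroid hormone receptors included), TATAAA or CATTCC (the MCAT element), and matches of different motifs did not overlap in these sequences. The upstream of 2 listed starts was used for Csrp3, and the start of Myom3 lies within the span RefSeq gives for the gene. The sequence of Actn2 ends 28 bases short of the start, where an annotated exon of another transcript begins.
Csrp3 (chr7:48848052-48848301, minus strand): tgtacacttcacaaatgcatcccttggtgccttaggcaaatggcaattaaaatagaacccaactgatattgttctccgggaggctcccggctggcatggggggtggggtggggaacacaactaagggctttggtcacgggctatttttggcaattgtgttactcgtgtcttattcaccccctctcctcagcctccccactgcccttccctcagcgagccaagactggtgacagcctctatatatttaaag
Myom3 (chr4:135759465-135759714, plus strand): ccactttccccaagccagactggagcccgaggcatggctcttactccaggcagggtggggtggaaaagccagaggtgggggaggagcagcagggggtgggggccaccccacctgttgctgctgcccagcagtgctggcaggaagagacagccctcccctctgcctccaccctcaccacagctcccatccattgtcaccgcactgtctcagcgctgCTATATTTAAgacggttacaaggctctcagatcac
Actn2 (chr13:12340761-12340982, minus strand): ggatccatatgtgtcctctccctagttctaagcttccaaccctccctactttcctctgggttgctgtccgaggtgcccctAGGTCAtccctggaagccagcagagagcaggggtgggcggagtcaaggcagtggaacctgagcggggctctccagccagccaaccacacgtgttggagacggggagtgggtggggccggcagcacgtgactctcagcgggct
Acta1 (chr8:123894776-123895025, minus strand): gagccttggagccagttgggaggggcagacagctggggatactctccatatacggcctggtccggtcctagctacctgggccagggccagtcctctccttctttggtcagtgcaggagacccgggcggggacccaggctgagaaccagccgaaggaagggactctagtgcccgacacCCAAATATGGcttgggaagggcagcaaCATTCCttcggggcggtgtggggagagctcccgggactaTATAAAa

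The stretch before Myom3 held a MEF2 site that began 35 bases before the start, and that before Actn2 held AGGTCA at 170 bases. Before Acta1 a CArG box, CATTCC and TATAAA began 73, 46 and 7 bases from the start, and no match to these motifs was found before Csrp3. A MEF2 site was found in 13.89% of the promoters of these genes (5 of 36, those of Klhl41, Myom3, Synpo2, Ttn and Xirp2), against 2.919% of all 32851 promoters. A CArG box was found in 11.11% (4 of 36, at Acta1, Ldb3 and Myom1), against 1.467% of all. The 2 promoters of Ldb3 overlap and hold the same CArG box, so by gene this is 3 of 32. AGGTCA was found in 8.333% (3 of 36, at Actn2, Pdlim5 and Xirp2), against 14.02% of all. The shares were 13.89 against 12.37% for TATAAA, 19.44 against 12.64% for CATTCC and 77.78 against 66.22% for the E-box CANNTG. These matches describe the letters of the windows and do not mark bound sites.

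Levels per kilobase of exon spanned the set from 18068 CPM per kilobase for Acta1, skeletal actin, to 6.13 for Obsl1, an obscurin-like protein. Tnnt3, fast troponin T, followed Acta1 at 17491, then Tnnc2, fast troponin C, at 10599.5, Mylpf, the fast regulatory light chain, at 9587 and Tnni2, fast troponin I, at 7252. Within their classes the most abundant were Tmod4 (520.4) and Klhl41 (362) among genes of the filament ends, Actn3 (2618) and Myoz1 (1524) in the Z-disc scaffold, Trim54 (299) and Nrap (248) in stretch and assembly, and Myom1 (326) and Myom2 (251) in the M-band. Neb and Ttn, which have the longest exon sequence of the set, reached 186 and 59.6 CPM per kilobase. Summed CPM of all 45 genes averaged 15.5, 13.7 and 13.6% of the TMM-scaled library size at 6, 15 and 21 months. The lowest sum was 12.4% in mouse 1 of the 15-month group and the highest 16.6% in mouse 2 of the 6-month group. These are not shares of raw counts, since the scaling factors of these 2 libraries were 1.05 and 0.923.

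**Figure D1:**
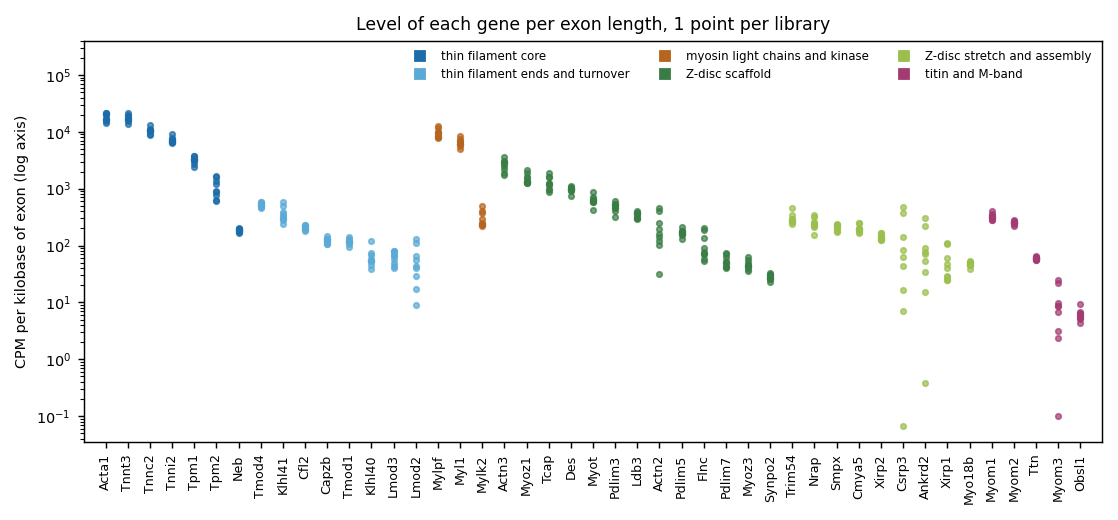
CPM per kilobase of exon on a log axis for each of the 45 genes, with 1 point per library and colours for the 6 classes. Acta1 and Tnnt3 stand at the top with their 9 points close together, while Csrp3, Ankrd2 and Myom3 have the widest spread, with mouse 2 of 6 months at the bottom of each.

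Between 21 and 6 months, skeletal actin, the fast light chains with their kinase, and the Z-disc genes Myoz1 and Pdlim7 lay lower in every mouse of 21 months, and Klhl40 and Xirp1 lay higher, but none of the 45 genes passed the test of edgeR. At an adjusted p under 0.05 in edgeR's quasi-likelihood test 0 of 45 genes passed, beside 2 of 13044 genes tested, or 0.0153%. At an unadjusted p under 0.05, 3 of the 45 were higher (Klhl40, Flnc and Xirp1) and 6 lower (Acta1, Mylpf, Mylk2, Myoz1, Pdlim7 and Trim54) at 21 months, beside 5.14% of all genes higher and 5.5% lower. DESeq2 called 4 of the 45, Klhl40, Mylk2, Myoz1 and Pdlim7, beside 1.53% of all genes. All 3 mice of 21 months lay above all 3 of 6 months for Klhl40 and Xirp1, and below them for Acta1, Capzb, Myl1, Mylpf, Mylk2, Myoz1 and Pdlim7, which is 2 higher and 7 lower of 45, where 7.83% of all genes were higher and 8.3% lower in this way. The median log2 fold change (21 minus 6 months) was -0.04 over the 45 genes, with 21 above 0 and 24 below, beside -0.0098 over all genes, and its sign turned with total count scaling, to 0.039. Klhl40, Mylk2, Myoz1 and Pdlim7 kept an unadjusted p under 0.05 in 9 of 9 fits that left out a library, Flnc and Xirp1 in 5, Mylpf and Trim54 in 4 and Acta1 in 2. The count of 9 genes ran from 4 without mouse 3 of 21 months to 13 without mouse 1 of 6 months. Because whole muscle was sequenced, fewer fibres of a type and less RNA per fibre cannot be told apart.

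**Figure D2:**
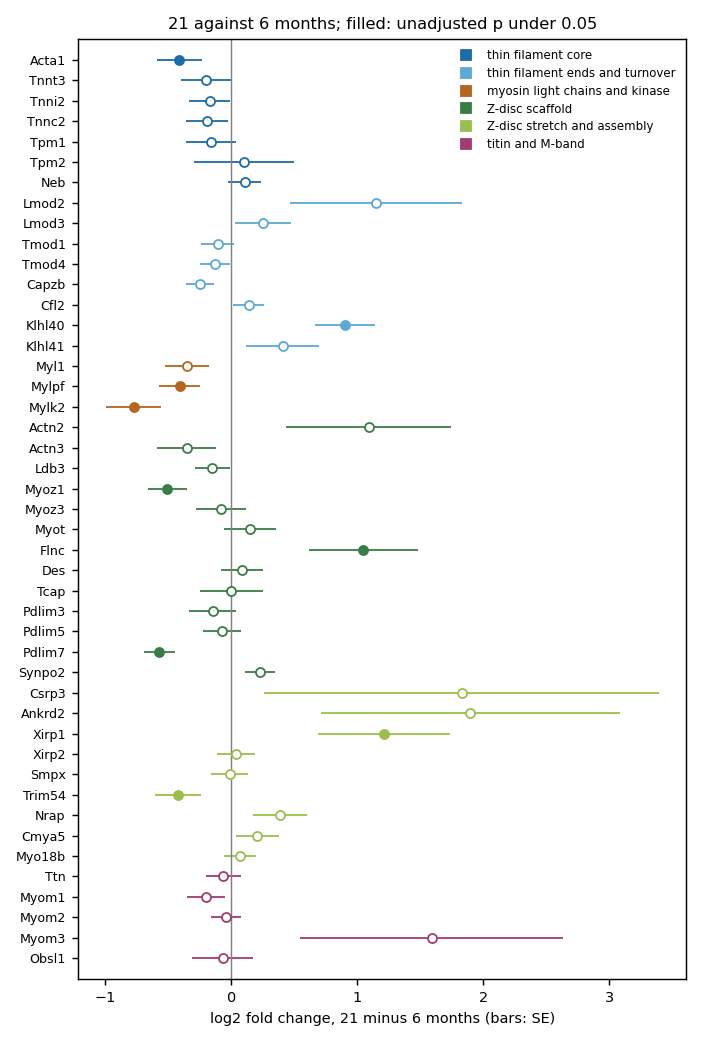
Log2 fold change of 21 minus 6 months with its SE for each of the 45 genes, ordered and coloured by class, filled where the unadjusted p was under 0.05. The widest bars belong to Csrp3, Ankrd2 and Myom3, far to the right, and the filled points left of 0 are Acta1, Mylpf and Trim54 between -0.41 and -0.42 and Pdlim7, Myoz1 and Mylk2 between -0.51 and -0.78. The filled points right of 0 are Klhl40 at 0.90, Flnc at 1.05 and Xirp1 at 1.21.

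Of the thin filament core, Acta1 was the gene with separated groups. Acta1 (Entrez ID 11459, chromosome 8, 123891758 to 123894775, GRCm38.p6, as for all positions here) had 31276, 31157 and 29808 CPM in the mice of 6 months, 20876, 24424 and 28216 at 15 months and 23232, 24021 and 22132 at 21 months. Every older mouse lay below every mouse of 6 months. It averaged 23128 ± 949 CPM at 21 months, against 30747 ± 815 CPM at 6 months (± SD, n = 3 per age). This is -0.41 in log2 units with an SE of 0.18, and the adjusted p was 0.452 by edgeR and 0.0568 by DESeq2. Tnnt3, which binds troponin to tropomyosin, had 22472, 25264 and 18722 CPM at 6 months, 16178, 19719 and 23229 at 15 months and 19460.0, 20148 and 18364 at 21 months, with overlapping groups. The fast troponins Tnni2 and Tnnc2 ran from 5495 to 8055 and from 6228 to 9324 CPM over the 9 libraries. Tropomyosin Tpm1 ran from 11712 to 18258 CPM and nebulin, the Neb product that extends along the thin filament, from 4055 to 4881 CPM, the narrowest range of the class at 1.2-fold. Tpm2, beta-tropomyosin, ran from 1466 CPM in mouse 2 of 6 months to 3996 CPM in mouse 3 of 21 months. The class median of log2 fold changes was -0.17, with 2 of 7 genes above 0.

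Among the genes of the filament ends, Klhl40 was the one with the clearest separation. Its product is a kelch protein that stabilises nebulin and leiomodin. Klhl40 (Entrez ID 72330, chromosome 9, 121777499 to 121791200) had 125, 91.8 and 106 CPM at 6 months, 158, 125 and 128 at 15 months and 176, 139 and 288 at 21 months. The highest value was that of mouse 3 of 21 months, and the lowest mouse of 21 months still exceeded the highest of 6 months. It averaged 201 ± 77.6 CPM at 21 months, against 107 ± 16.5 CPM at 6 months (± SD, n = 3 per age). This is 0.90 in log2 units with an SE of 0.24, and the adjusted p was 0.204 by edgeR and 0.0151 by DESeq2. Without mouse 3 of 21 months it was 0.55 (adjusted p = 0.303, edgeR). Exons of Klhl40 share 456 bases with Gm47108 on the opposite strand, and the strand setting of the counting is not known here.

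Klhl41, a kelch protein related to Klhl40, had 979, 734 and 615 CPM at 6 months, 1237, 758 and 821 at 15 months and 913, 704 and 1474 at 21 months, and its groups overlapped. The leiomodins, which start actin filaments at their pointed ends, differed in spread. Lmod2 (chromosome 6, 24597771 to 24605414) had 112, 17.9 and 33.7 CPM at 6 months, 254, 128 and 79.9 at 15 months and 87.7, 58.7 and 217 at 21 months, a 14.2-fold range. Lmod3 had 108, 88.4 and 146 CPM, then 176, 171 and 151, then 129, 98.3 and 181 at the same ages. The pointed-end caps were steadier, Tmod1 at 300.3 to 438 CPM and Tmod4 with 679, 732 and 663 CPM at 6 months, 601, 620.2 and 732 at 15 months and 649.8, 664 and 585 at 21 months. Capzb, a subunit of the cap at the Z-disc end, had 224, 252 and 253 CPM at 21 months, all below 280.0, 271 and 316 at 6 months. Cfl2, the muscle cofilin that severs actin, ran from 530.4 to 688 CPM. The class median of log2 fold changes at 21 against 6 months was 0.20, with 5 of 8 genes above 0.

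All 3 genes of the myosin light chains and their kinase were lower in every mouse of 21 months than in every mouse of 6 months. Mylk2 (Entrez ID 228785, chromosome 2, 152911281 to 152923065), the skeletal kinase that phosphorylates the regulatory light chain, had 1204, 1459 and 877 CPM at 6 months, 669, 747 and 1112 at 15 months and 703, 703 and 662 at 21 months. The mice of 21 months lay close together, and those of 6 months were spread. It averaged 689 ± 24.1 CPM at 21 months, against 1179.9 ± 292 CPM at 6 months (± SD, n = 3 per age). This is -0.78 in log2 units with an SE of 0.22, and the adjusted p was 0.239 by edgeR and 0.0284 by DESeq2. Mylpf (Entrez ID 17907, chromosome 7, 127208848 to 127214288), which encodes the light chain that Mylk2 acts on, had 8263, 10314 and 9604 CPM at 6 months, 6419, 6920.2 and 7894 at 15 months and 7825, 6725 and 6703 at 21 months. In log2 units the difference of 21 minus 6 months was -0.41 with an SE of 0.16 (adjusted p = 0.406 by edgeR). Myl1, the fast essential light chain, had 10157, 12482 and 10865 CPM at 6 months, 7307, 9176 and 10315 at 15 months and 9079, 8883 and 8302 at 21 months, again with the oldest group below the youngest. Estimated counts of Mylpf were fractional in all 9 libraries. The class median of log2 fold changes was -0.41.

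In the Z-disc scaffold, Pdlim7 had the smallest p of all 45 genes, and Myoz1 was lower beside it. Pdlim7 (Entrez ID 67399, chromosome 13, 55497487 to 55513473) encodes a PDZ and LIM domain protein of the Z-disc, also called Enigma. It had 188, 221 and 206 CPM at 6 months, 117, 127 and 156 at 15 months and 148, 143 and 125 at 21 months. The mice of both older groups lay below all mice of 6 months. Pdlim7 averaged 138 ± 12.2 CPM at 21 months, against 205 ± 16.6 CPM at 6 months (± SD, n = 3 per age). This is -0.57 in log2 units with an SE of 0.13, and the adjusted p was 0.138 by edgeR and 0.0071 by DESeq2. The microRNA gene Mir6945 shares 68 bases of its exons on the same strand.

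Myoz1 (Entrez ID 59011, chromosome 14, 20649102 to 20656540), a calcineurin-binding protein of the fast Z-disc, had 2443, 2727 and 1996 CPM at 6 months, 1662, 1712 and 2093 at 15 months and 1744, 1644 and 1654 at 21 months. Its mice of 21 months lay between 1644 and 1744 CPM, and all lay below those of 6 months. The means were 1681 ± 55.2 CPM at 21 months, against 2389 ± 369 CPM at 6 months (± SD, n = 3 per age). This is -0.51 in log2 units with an SE of 0.15, and the adjusted p was 0.258 by edgeR and 0.0331 by DESeq2. Flnc (Entrez ID 68794, chromosome 6, 29433153 to 29461889), filamin C, a crosslinker recruited to strained and damaged Z-discs, had 812, 525 and 489 CPM at 6 months, 1713, 653 and 649 at 15 months and 1209.9, 706 and 1859 at 21 months. The groups overlapped, and mouse 3 of 21 months and mouse 1 of 15 months stood highest. In log2 units the difference of 21 minus 6 months was 1.05 with an SE of 0.43 (adjusted p = 0.426 by edgeR), and 0.66 without mouse 3 of 21 months.

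The alpha-actinins crosslink actin at the Z-disc. Actn3, the fast isoform, had 8756, 10385 and 7916 CPM at 6 months, 5020.2, 6329 and 8467 at 15 months and 7317, 8476 and 5369 at 21 months. Actn2 (Entrez ID 11472, chromosome 13, 12269426 to 12340732), the isoform found in all fibre types, had 595, 95.6 and 308 CPM at 6 months, 1353, 737 and 358 at 15 months and 490.4, 425 and 1212 at 21 months, a 14.2-fold range. The 2 libraries highest in Actn2, mouse 1 of 15 months and mouse 3 of 21 months, were the 2 lowest in Actn3. Of the other scaffold genes, Ldb3, a PDZ protein bound to alpha-actinin, ran from 1822 to 2426 CPM, Des, the intermediate filament desmin, from 2210.3 to 3378 CPM, and Tcap, which caps the end of titin, from 840.3 to 1808 CPM. Myot, myotilin, ran from 918 to 1903 CPM and Myoz3, a fast relative of Myoz1, from 123 to 218 CPM. The LIM proteins Pdlim3 and Pdlim5 ran from 625 to 1189 and from 917 to 1441 CPM. Synpo2, a filamin partner, ran from 300.5 to 429 CPM. The class median of log2 fold changes at 21 against 6 months was -0.07, with 6 of 13 above 0.

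Among the 9 genes of stretch and assembly, Xirp1 had separated groups and Csrp3 and Ankrd2 the widest ranges. Xirp1 (Entrez ID 22437, chromosome 9, 120013755 to 120023598) encodes Xin, an actin-binding repeat protein of remodelling muscle. It had 239, 161 and 146 CPM at 6 months, 639.7, 170.1 and 146 at 15 months and 352, 282 and 632 at 21 months. All mice of 21 months lay above those of 6 months, while those of 15 months spanned both. It averaged 422 ± 185 CPM at 21 months, against 182 ± 49.9 CPM at 6 months (± SD, n = 3 per age). This is 1.21 in log2 units with an SE of 0.52, and the adjusted p was 0.443 by edgeR and 0.602 by DESeq2. Without mouse 3 of 21 months it was 0.80. Trim54, a RING finger protein that binds microtubules, had 489.8, 664 and 379 CPM at 6 months, 382, 381 and 421 at 15 months and 387, 413 and 344 at 21 months. The log2 difference of -0.42 (SE of 0.18, adjusted p = 0.439 by edgeR) was -0.19 without mouse 2 of 6 months, the highest library. Trim54 shares 382 bases of exon with Gm15469 on the opposite strand.

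Csrp3 (Entrez ID 13009, chromosome 7, 48830398 to 48848051) encodes muscle LIM protein, a Z-disc protein abundant in slow fibres. It had 131, 0.0626 and 6.5 CPM at 6 months, 440.0, 41.1 and 15.4 at 15 months and 58.0, 78.3 and 352 at 21 months. The value of 0.0626 CPM is 1 count, in mouse 2 of 6 months, and the groups overlapped throughout. Ankrd2 (Entrez ID 56642, chromosome 19, 42035917 to 42045111), an ankyrin-repeat protein induced by stretch, had 87.7, 0.438 and 17.2 CPM at 6 months, 353, 104 and 38.4 at 15 months and 80.6, 61.6 and 250.5 at 21 months, with the same libraries at both ends. Nrap, which anchors actin during assembly, had 1337, 1153 and 853 CPM at 6 months, 1877, 1274 and 1431 at 15 months and 1378, 1215 and 1775 at 21 months. Ranges were narrower for Xirp2, a relative of Xirp1 (1506 to 2015 CPM), Cmya5, myospryn (1997 to 2946 CPM), Myo18b, an unconventional myosin needed for assembly (318 to 442 CPM) and Smpx, a small muscle protein (208 to 297 CPM). The class median of log2 fold changes at 21 against 6 months was 0.21, with 7 of 9 genes above 0.

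Titin, Myom1 and Myom2 varied little between libraries, and Myom3 ranged widely. Ttn, which spans from Z-disc to M-band, ran from 6279 to 7479 CPM, a 1.19-fold range and the narrowest of all 45. Myom1 had 1939, 2288 and 1801 CPM at 6 months, 1599.6, 1718 and 2068 at 15 months and 1823, 1831 and 1592 at 21 months. Myom2, the myomesin of fast fibres, had 1303, 1258 and 1416 CPM, then 1098, 1204 and 1317, then 1269, 1346 and 1253 at the same ages, and the groups of both genes overlapped. Myom3 (Entrez ID 242702, chromosome 4, 135758800 to 135815571), the myomesin of slow and intermediate fibres, had 54.9, 0.563 and 13.2 CPM at 6 months, 139, 48.5 and 17.6 at 15 months and 48.1, 38.2 and 121 at 21 months. Its lowest value rests on 9 counts. Obsl1 ran from 25.8 to 57.1 CPM. The class median at 21 against 6 months was -0.06, with 1 of 5 genes above 0.

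**Figure D3:**
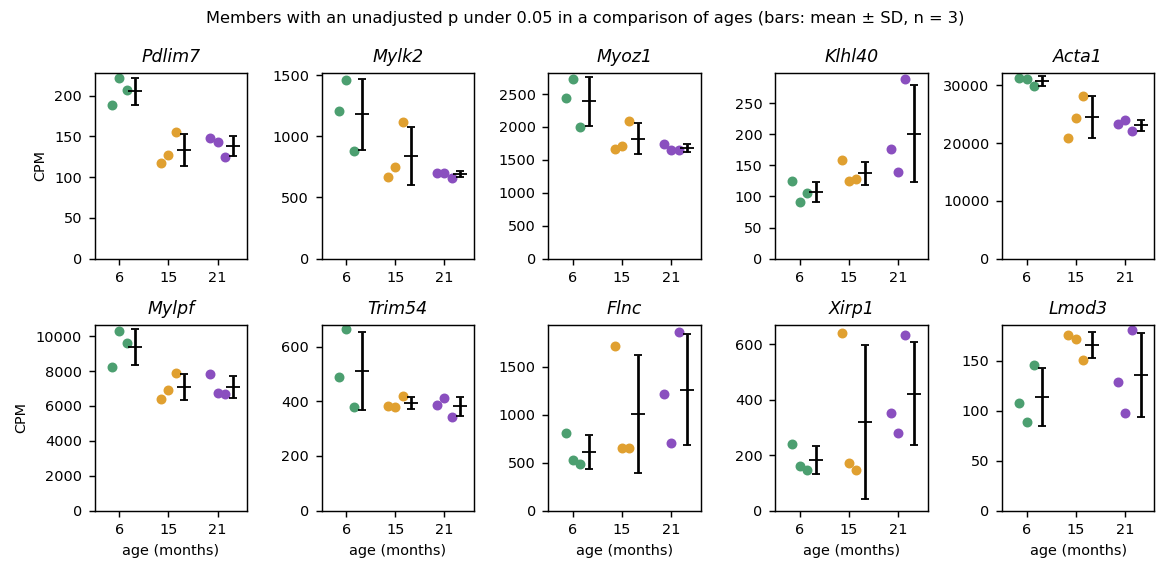
CPM by age in months for the 10 genes with an unadjusted p under 0.05 in a comparison of ages, with 1 point per mouse and bars for mean ± SD (n = 3). Pdlim7 and Acta1 lie lower at both older ages, Klhl40 lies highest at 21 months, and in Flnc and Xirp1 single mice of the older groups reach 1859 and 639.7 CPM.

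At 15 against 6 months, Pdlim7 again had the smallest p. Its mean was 134 ± 19.9 CPM at 15 months, against 205 ± 16.6 CPM at 6 months (± SD, n = 3 per age). This is -0.62 in log2 units with an SE of 0.13, and the adjusted p was 0.194 by edgeR and 0.0033 by DESeq2. In edgeR 0 of the 45 genes passed the adjusted threshold, beside 1 of 13044, or 0.00767%, and DESeq2 called Pdlim7 alone, beside 0.874% of all genes. At an unadjusted p under 0.05, 1 gene was higher and 4 lower at 15 months, beside 4.91% of all genes higher and 5.38% lower. The higher gene was Lmod3 at 0.54 (SE 0.23, adjusted p = 0.443, edgeR), with means of 166 ± 13.4 CPM at 15 months against 114 ± 29.2 at 6 months. The lower genes besides Pdlim7 were Mylk2 at -0.49 (SE 0.22), Mylpf at -0.41 (SE 0.16) and Myoz1 at -0.39 (SE 0.15), with adjusted p of 0.485, 0.422 and 0.413 in edgeR. Groups did not overlap for Lmod3, Klhl40 and Synpo2, higher at 15 months, and Acta1, Mylpf and Pdlim7, lower. Of all genes, 6.63% were higher and 7.15% lower in this way. The groups of Klhl40 nearly touched, at 124.945 CPM in mouse 2 of 15 months and 124.748 CPM in mouse 1 of 6 months. The median was -0.09 over the 45 genes (20 above 0, 25 below) and -0.0070 over all genes. The count of 5 genes at an unadjusted p under 0.05 ran from 1 without mouse 2 of 6 months (Pdlim7) to 13 without mouse 3 of 15 months. Pdlim7 was among them in 9 of 9 fits that left out a library, Lmod3, Mylpf and Myoz1 in 5 and Mylk2 in 2. This comparison and that of 21 against 6 months share the mice of 6 months. Mylk2 depended on single libraries, since its value was -0.31 without mouse 2 of 6 months (the highest) and -0.74 without mouse 3 of 15 months.

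Between 21 and 15 months, Klhl40 alone had an unadjusted p under 0.05. It averaged 201 ± 77.6 CPM at 21 months, against 137 ± 18.4 CPM at 15 months (± SD, n = 3 per age), with overlapping groups. The log2 difference was 0.55 with an SE of 0.24 (adjusted p = 0.99987 by edgeR) and became 0.20 without mouse 3 of 21 months. Klhl40 kept an unadjusted p under 0.05 in 5 of 9 fits that left out a library, and the number of such genes ran from 0 to 4, the most without mouse 1 of 15 months. In edgeR 0 of the 45 genes passed, beside 0 of 13044 or 0%, and DESeq2 called 0 of the 45, beside 0.023% of all genes. Of all genes, 1.08% were higher and 0.736% lower at an unadjusted p under 0.05. Not a single sarcomere gene had groups that did not overlap, beside 2.84% of all genes higher and 3.31% lower. The median was -0.0020 over the 45 genes and -0.0025 over all genes. Across all 3 ages together, the F-test of edgeR called 0 of the 45, beside 0%, and 5 had an unadjusted p under 0.05 (Pdlim7, Klhl40, Mylk2, Myoz1 and Mylpf), beside 8.55% of all genes. The adjusted p was 0.157 for Pdlim7 and 0.383 for Klhl40 in this test, and the likelihood ratio test of DESeq2 called these 2 of the 45, at adjusted p of 0.000825 and 0.0399, beside 1.56% of all genes.

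Many of these genes had the same libraries at the ends of their range, and these libraries came from all 3 ages. In 13 of the 45 genes, mouse 1 of 15 months and mouse 3 of 21 months were the 2 highest libraries: Tpm2, Lmod2, Lmod3, Cfl2, Klhl41, Actn2, Myot, Flnc, Csrp3, Ankrd2, Xirp1, Nrap and Myom3. Mouse 2 of 6 months was the lowest in 8 of these. In 12 genes the same pair were the 2 lowest: Acta1, Tnnt3, Tnni2, Tnnc2, Tpm1, Tmod4, Myl1, Mylpf, Mylk2, Actn3, Pdlim7 and Myom1. Mouse 2 of 6 months was the highest in 9 of those. The share of all genes with either order was not counted, so these counts do not set the 45 genes apart. Of the smooth muscle markers, Acta2, Tagln and Cnn1 also had this pair as the 2 highest libraries, and Myh11, Smtn and Lmod1 did not. Highest and lowest library differed by less than 1.5-fold in 17 genes and by less than 3-fold in 37, with a median of 1.66-fold.

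**Figure D4:**
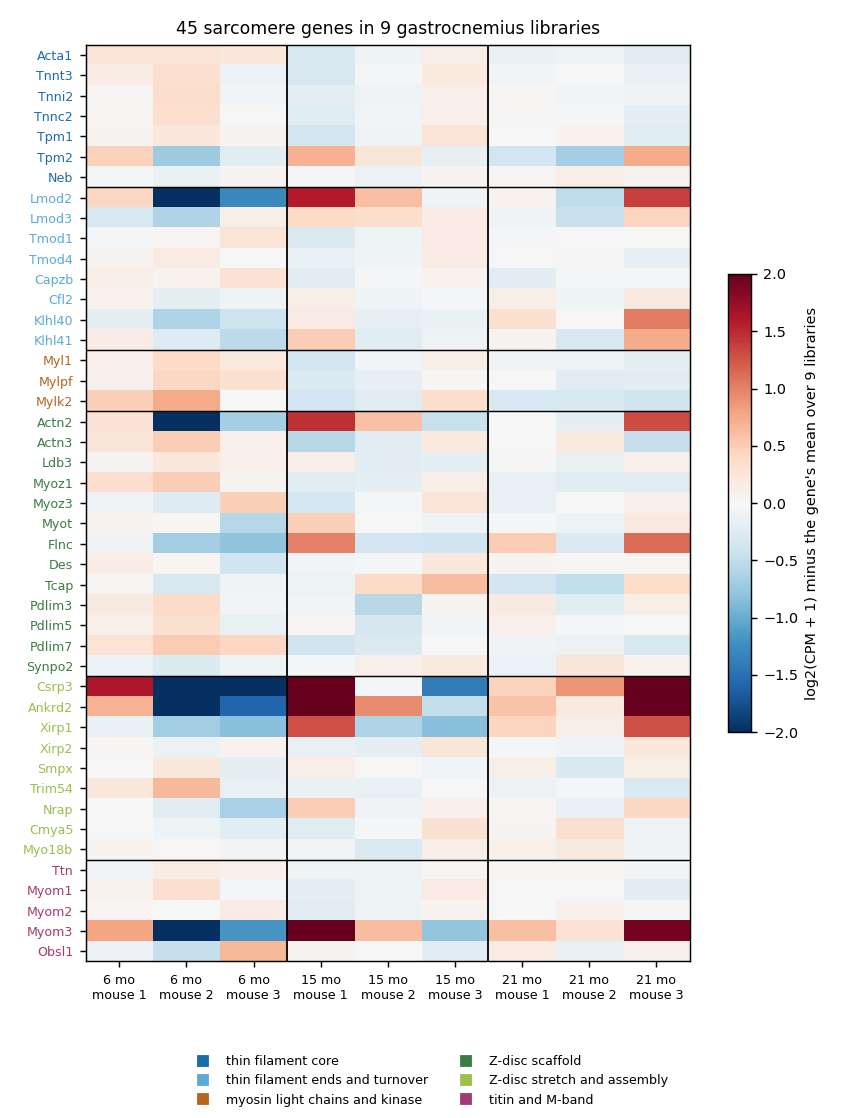
Log2(CPM + 1) minus each gene's mean over the 9 libraries, for the 45 genes in rows by class and the libraries in columns by age, with colours saturated at 2 on either side of 0. Mouse 1 of 15 months and mouse 3 of 21 months share a pattern across classes, and Csrp3, Ankrd2 and Myom3 are lowest in mouse 2 of 6 months.

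The slow and oxidative fibre genes moved with those libraries. So did Myh1, a fast myosin heavy chain outside the 45, with 159 CPM in mouse 2 of 6 months. It had 6994 CPM in mouse 1 of 15 months and 5248 CPM in mouse 3 of 21 months. Myh2, the myosin heavy chain of fast oxidative fibres and not one of the 45, had 1611, 0.755 and 530.0 CPM at 6 months, 4395, 2825 and 834 at 15 months and 1267, 967 and 3642 at 21 months. Actn2 and Ankrd2 ranked the 9 libraries in exactly the order of Myh2. Estimated counts of Myh2 were fractional in all 9 libraries, so its values are uncertain to the extent that reads were shared. The 7 slow counterparts of the fast sarcomere genes (Tnnt1, Tnni1, Tnnc1, Tpm3, Myoz2, Myl2 and Myl3) summed to 41.1 to 233 CPM at 6 months, 265 to 808 at 15 months and 161 to 744 at 21 months, lowest in mouse 2 of 6 months and highest in mouse 1 of 15 months and mouse 3 of 21 months. Actc1, an actin of heart and developing muscle listed with them, was highest in mouse 3 of 6 months at 460.4 CPM and did not follow those libraries. Each of these 8 genes had counts in at least 1 library, and 0 of 8 passed the adjusted threshold in edgeR at 21 against 6 months. At an unadjusted p under 0.05, Tnnt1, Tnni1 and Tnnc1 were higher and Actc1 lower. At 15 against 6 months, 4 of the 8 were higher at that p (Tnnt1, Tnni1, Tnnc1 and Myl3) and Actc1 lower. All genes had 4.91% higher and 5.38% lower in this way. Every mouse of 15 months lay above every mouse of 6 months for those 4, and for Myh7, a myosin heavy chain outside the 45. Again 0 of 8 passed the adjusted threshold in edgeR. The part of these genes in the differences given above was not tested. In the fit without the 3 libraries named, 0 of 45 genes passed the adjusted threshold at 21 against 6 months, beside 0.0230% of all genes. At an unadjusted p under 0.05, 2 of the 45 were higher and 5 lower, beside 6.00% of all genes higher and 6.18% lower. The higher genes were Klhl40 at 0.45 and Xirp1 at 0.72 in log2 units, with adjusted p of 0.281 and 0.285 in edgeR. The lower genes were Mylk2 at -0.56, Pdlim7 at -0.44, Tcap at -0.42, Capzb at -0.32 and Tpm2 at -0.69, with adjusted p of 0.366, 0.245, 0.310, 0.348 and 0.344 in edgeR. The sign for Tpm2 turned, since it stood at 0.10 (SE 0.40, adjusted p = 0.954, edgeR) with all libraries, where Tcap stood at 0.0012. Myoz1 stood at -0.39 (adjusted p = 0.41, edgeR). Acta1 was then at -0.37, Mylpf at -0.30, Flnc at 0.56 and Trim54 at -0.12. At 15 against 6 months the values were -0.48 for Pdlim7, -0.27 for Mylpf, -0.22 for Myoz1, -0.16 for Mylk2 and 0.35 for Lmod3, and at 21 against 15 months Klhl40 was at 0.31. The class medians at 21 against 6 months were -0.02 for the thin filament core, -0.01 for the filament ends (against 0.20 with all libraries), -0.30 for the light chains, -0.08 for the Z-disc scaffold, 0.15 for stretch and assembly and -0.03 for titin and the M-band.

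**Figure D5:**
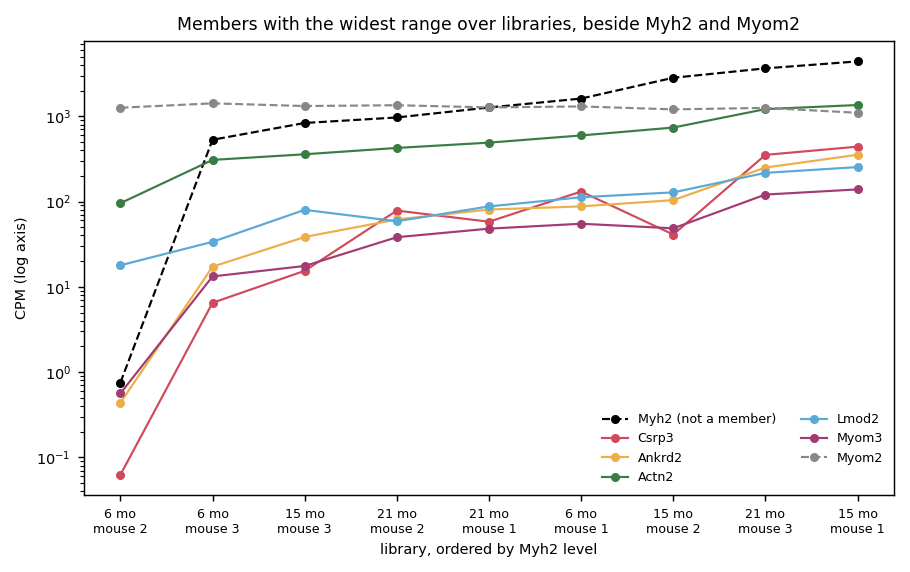
CPM on a log axis of the genes with the widest range over libraries, beside Myh2 and Myom2 (dashed), with the 9 libraries ordered by their Myh2 level. Csrp3, Ankrd2, Myom3, Lmod2 and Actn2 are lowest at the left and highest at the right, with Actn2 and Ankrd2 rising at every step, while Myom2 stays between 1098 and 1416 CPM.

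Isoform shares, taken from levels per kilobase of exon, varied with the same libraries. Actn2 made up 0.875% of the sum of both alpha-actinins in mouse 2 of 6 months and 20.5% in mouse 1 of 15 months, averaging 9.47 ± 7.24% at 21 months against 3.53 ± 2.62% at 6 months (± SD, n = 3 per age). Tpm2 made up 14.3 to 39.6% of Tpm1, Tpm2 and Tpm3 together. This share depends on the lengths used, 4.78 kilobases for Tpm1 and 2.382 kilobases for Tpm2. They merge the exons of annotated transcripts, including any that muscle does not use. Myom3 made up 0.0155 to 4.76% of the myomesins, beside 51.1 to 61.9% for Myom1 and 38.1 to 46.6% for Myom2. Myoz1 made up 86.7 to 98.2% of the myozenins, and its slow relative Myoz2 0.0271 to 10.9%. The fast troponins made up 99.47% or more of each fast and slow pair in all 9 libraries.

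Of 15 other sarcomere genes outside the set, 0 passed the adjusted threshold in edgeR at 21 against 6 months. At an unadjusted p under 0.05, Synpo2l was higher and Palld, Trim55 and Trim63 lower at 21 months, and DESeq2 called Palld, a Z-disc actin-binding protein, at -0.73 in log2 units with an SE of 0.15 (adjusted p = 0.105 by edgeR and 0.0024 by DESeq2). At 15 against 6 months Palld and Trim63 were lower at an unadjusted p under 0.05, and 0 passed.

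Markers of other cell types were summed per library. Summed smooth muscle markers stood at 148 to 268 CPM at 6 months, 236 to 274 at 15 months and 179 to 301 at 21 months, and summed cardiac markers at 0.307 to 1.91, 0.247 to 3.24 and 0.235 to 2.66 CPM at the same ages. Summed endothelial markers stood at 292 to 422 CPM at 6 months, 337 to 478 at 15 months and 358 to 432 at 21 months, lowest in mouse 2 of 6 months and highest in mouse 1 of 15 months. Of these Kdr, a receptor of vascular endothelial growth factor, had 115, 132 and 150.4 CPM at 21 months, all above 100.3, 66.9 and 114 CPM at 6 months (0.50 in log2 units, SE 0.25, adjusted p = 0.506 by edgeR). The other endothelial markers, Pecam1 and Cdh5, had overlapping groups in that comparison. They stood at 0.075 and -0.021 in log2 units (adjusted p = 0.912 and 0.975 by edgeR). Tenocyte markers summed to 140.5 to 222 CPM at 6 months, 84.6 to 236 at 15 months and 152.5 to 209 at 21 months. Macrophage markers summed to 32 to 49.1 CPM at 6 months, 18.1 to 35.0 at 15 months and 19.1 to 34.6 at 21 months. All 3 of these markers were below 0 in log2 fold change at 21 and at 15 against 6 months. Adgre1 and Csf1r had an unadjusted p under 0.05 in both comparisons. At 21 against 6 months they stood at -0.83 and -0.64 (adjusted p = 0.349 and 0.412 by edgeR), with overlapping groups for Csf1r only. The part of these cell types in the differences was not tested. Satellite cell markers summed to 28.8 to 35.4 CPM and markers of immature fibres to 16.7 to 26.3 CPM over all libraries. Single markers of immature fibres went in opposite directions. Myh3 stood at 1.55 in log2 units at 15 against 6 months (SE 0.71, adjusted p = 0.493 by edgeR). Myh8 and Ncam1 stood at 0.89 and -0.077 in that comparison. For 21 against 6 months, Myh3 stood at 1.51 (SE 0.71, adjusted p = 0.480 by edgeR), Myog at -0.43 and Ncam1 at 0.031. Myog was lower at 15 against 6 months (-0.97 in log2 units, SE 0.23, adjusted p = 0.250 by edgeR and 0.0472 by DESeq2). Myh8 was higher at 21 against 6 months (1.07, SE 0.47, adjusted p = 0.461 by edgeR and 0.413 by DESeq2). Of the 45 genes, 6 had fractional estimated counts (Mylpf, Nrap, Tmod1, Tmod4, Acta1 and Klhl41), and 12 have exons that overlap another gene, 11 of them on the opposite strand. Values of these genes are uncertain to the extent that reads were shared.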

How the data were processed

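Poly(A) RNA from TRIzol extracts was enriched on oligo(dT) beads, per the labels' protocols, and sequenced as DNA nanoballs. The authors deposited 1 table of estimated counts per gene, of which 90.0 to 90.7% were whole within 0.005, and 0 columns belonged to other samples. Per the submitters' processing notes, mm10 was used. Not given in the sources used here are aligner, counter and strand setting. The design text describes separate mice.

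Counts were rounded, filtered with filterByExpr (minimum count 10) and scaled by TMM (factors 0.923 to 1.05). A quasi-likelihood model (edgeR 4.0.16 in R 4.3.3) held all 9 libraries and age as its factor, with 6 residual degrees of freedom. Benjamini-Hochberg adjustment ran over all 13044 genes, and the threshold was 0.05. CPM use the unrounded counts, and lengths are those of merged GENCODE exons. Levels per kilobase and isoform shares depend on these lengths, which include any exons that muscle does not use. The procedure was tested on simulated counts. Those were drawn gene by gene, without shifts shared by many genes of a library, so the test does not cover such shifts. For low genes the total count limits precision as well.

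The members and lists were chosen with earlier results of these data known. Values of every library are given for members with a p under 0.05 in any comparison, the 5 with the widest range and the 2 most abundant per length in each class. Other members are given by range, except Capzb and Tcap, picked after their values were seen. Alternatives were DESeq2 1.42.0, RLE and total count scaling, other filters, a replicate block, only the 2 ages compared, and leaving out each library. Leaving out the 3 outlying libraries was added after seeing the data.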

Additional observations from a re-analysis of the deposited data

How the results depend on the processing

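The 15 log2 fold changes of members with an unadjusted p under 0.05 in the main fit kept their sign under all 255 alternatives. Of these alternatives 5, all in DESeq2, moved past the adjusted threshold. The 15 were picked by their p in the same libraries, so a kept sign was likely from the start and is no separate support. Tpm2, not among the 15, turned from 0.10 to -0.69 at 21 against 6 months without the 3 outlying libraries. In edgeR 0 of the 45 genes passed the adjusted threshold under any alternative run, and DESeq2 called 4 at 21 against 6 months, 1 at 15 against 6 months and 2 over all ages. Genes called in the whole table varied more. At 21 against 6 months there were 2, against 1 with total count scaling, 30 with no filter, 200 with DESeq2, 5 with the replicate block and 0 to 42 when single libraries were left out. At 15 against 6 months there was 1, against 0 with total count scaling, with the filter of 5 CPM in 3 libraries, with the replicate block and with only the 2 ages compared, 114 with DESeq2 and 0 to 10 when single libraries were left out. At 21 against 15 months there were 0, against 3 with DESeq2. Over all ages there were 0, against 5 with no filter, 204 with DESeq2, 5 with the replicate block and 0 to 10 when single libraries were left out. The most calls came without mouse 3 of 6 months.

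Total count scaling put the median of the 45 genes at 0.039 at 21 against 6 months, the opposite sign to the -0.040 of TMM, and at -0.014 at 15 against 6 months, while it moved the median of all genes to 0.07 in both. Leaving out single libraries put the median at 15 against 6 months between -0.16 and -0.044. Of 306 alternatives for the class medians, 286 stayed within the spread and 20 moved. The replicate numbers were not used to pair the mice in the main fit. Deviations of same-numbered libraries correlated between -0.42 and 0.41, and 2 of 9 libraries correlated best with their own number. With 3 libraries per age, these correlations cannot exclude a link between same-numbered libraries. With the replicate block, Pdlim7 stood at -0.56 (adjusted p = 0.244, edgeR) at 21 against 6 months. With 3 mice per age, a p above the threshold does not show that levels were alike.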

Other observations

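Tcap, which encodes telethonin (Entrez ID 21393, chromosome 11, 98383811 to 98384953), was picked after its values were seen. It had 1207, 946 and 1125 CPM at 6 months, 1098, 1536 and 1808 at 15 months and 905, 840.3 and 1536 at 21 months. The groups overlapped, and with all libraries the log2 difference of 21 minus 15 months was -0.44 with an SE of 0.25 (adjusted p = 0.99987 by edgeR). Without mouse 2 of 6 months, mouse 1 of 15 months and mouse 3 of 21 months, it was -0.94 with an SE of 0.14 (adjusted p = 0.21 by edgeR), and it did not pass the threshold.

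Actc1, the actin of heart and developing muscle, differed most in a single mouse. It had 58.8, 58.0 and 460.4 CPM at 6 months, 25.3, 17.8 and 9.35 at 15 months and 29.0, 17 and 48.4 at 21 months. All mice of 21 months lay below those of 6 months, and the log2 difference was -2.61 with an SE of 0.79 (adjusted p = 0.257 by edgeR). Without mouse 3 of 6 months it was -0.88 with an SE of 0.43 (adjusted p = 0.409 by edgeR), so the size of the difference rests on that mouse.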
